A study of Mus musculus with 6 samples.

Results

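The major histocompatibility complex (MHC) class I genes and the genes that supply class I molecules with peptides were followed in mouse embryonic stem (ES) cells. 9 genes were chosen by name: B2m, H2-K1, H2-D1, Tap1, Tap2, Tapbp, Psmb8, Psmb9 and Psmb10. All probe sets whose platform annotation gives 1 of these symbols alone were taken, which gave 26 of the 45037 probe sets tested, or 9 of the 18193 genes with a symbol of their own.

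Class I molecules are built from a heavy chain and beta-2-microglobulin and display peptides at the cell surface. The peptides are cut by the proteasome, pumped into the endoplasmic reticulum by the Tap1 and Tap2 transporter and loaded with the help of tapasin. ES cells are known for low surface class I, and interferon gamma is the classical inducer of the whole pathway through factors such as Irf1 and Nlrc5.

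The cells were the mouse ES line EBRTcH3, in which human WBSCR1, tagged with 3xFLAG, had been placed at ROSA26 behind a promoter that tetracycline shuts off. WBSCR1 encodes the human form of Eif4h, which takes part in starting translation. Induced arrays came from clones A1, A3 and A4 after 24 h without tetracycline, and control arrays from the same 3 clones kept in tetracycline at 0 h of withdrawal. Each clone was selected with puromycin and grown with leukemia inhibitory factor, and each gave 1 induced and 1 control Affymetrix whole-genome mouse array, 6 in all. The transgene is present in the control cells too, there is no line without it, and expression of the transgene cannot be told apart from removal of tetracycline. A clone is a single line, so clone and culture cannot be told apart. Nothing in the labels says that the 2 arrays of a clone came from several cultures, so p-values measure only the spread between these arrays.

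The values given here are robust multiarray average (RMA) signals on the log2 scale. Array medians lay between 5.11 and 5.19, with upper quartiles from 7.38 to 7.46. All 12 ES cell markers were bright (10.3 to 14.0 log2), with 1 of them, Klf4, lower in A3 (a call that held in 1 of 8 fits with an array or clone left out), 10 fibroblast markers lay between 2.67 and 7.11 and 10 leukocyte markers between 2.80 and 6.26. The markers of extraembryonic endoderm averaged 5.39 and 5.42 log2 in the induced and control array of A3, against 6.21 and 6.18 in A1 and 5.91 and 5.84 in A4. 6 of those 12 markers were lower in A3 by limma and none higher, against 6.32% of all genes lower and 5.13% higher. These 6 calls held in 4 to 8 of the 8 fits with an array or clone left out. In A1 against the others, 4 of the 12 were called, against 0.666% of all probe sets. Of 8 trophectoderm markers, Tfap2c was higher and Krt8 lower in A3 (these markers were named after their values were seen). The part of these markers in the differences of A3 below was not tested. In bulk RNA, fewer cells of a type and less RNA per cell cannot be told apart.

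B2m lies on chromosome 2, Psmb10 on chromosome 8 and the other 7 genes in the H2 region of chromosome 17. The start regions of the class I genes carry letters that match elements known from class I regulation, and 4 of them are shown because the results turn on B2m, on the heavy chains and on the neighbours Psmb9 and Tap1. Sequences are from RefSeq on GRCm38.p6, read 5′ to 3′ on the gene's strand, up to the base before the annotated start. Capitals mark matches on either strand to AANNGAAA (the interferon regulatory factor core), GGGGATTCC and GGGACTTTC (kappa B forms), TGACG (the cyclic AMP response element core) and CCAAT. No 2 of the marked matches overlap. H2-K1 has a further annotated start downstream of the one used here, with another CCAAT match 6 to 2 bases before it that is not shown.
B2m, chr2:122147497-122147686, plus strand: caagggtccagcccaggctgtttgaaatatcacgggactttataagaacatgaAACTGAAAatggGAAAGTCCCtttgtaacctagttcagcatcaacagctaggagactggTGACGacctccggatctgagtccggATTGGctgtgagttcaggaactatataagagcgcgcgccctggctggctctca
H2-K1, chr17:34000348-34000537, minus strand: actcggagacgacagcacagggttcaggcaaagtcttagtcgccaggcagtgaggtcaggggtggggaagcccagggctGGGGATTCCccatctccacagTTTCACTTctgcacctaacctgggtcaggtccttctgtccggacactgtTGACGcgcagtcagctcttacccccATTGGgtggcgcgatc
H2-D1, chr17:35262904-35263093, plus strand: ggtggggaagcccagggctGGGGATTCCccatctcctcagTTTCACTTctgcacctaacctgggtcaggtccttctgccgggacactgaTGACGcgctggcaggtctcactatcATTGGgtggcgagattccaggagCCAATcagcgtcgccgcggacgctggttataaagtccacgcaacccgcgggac
Psmb9 to Tap1, chr17:34187331-34187555, plus strand: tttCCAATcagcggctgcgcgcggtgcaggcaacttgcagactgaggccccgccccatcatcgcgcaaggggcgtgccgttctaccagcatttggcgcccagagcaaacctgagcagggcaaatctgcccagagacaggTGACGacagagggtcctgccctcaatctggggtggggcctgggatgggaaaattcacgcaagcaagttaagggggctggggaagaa

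In 250 bases before the start, AANNGAAA was found for 3 of the 8 genes with an entry, B2m, H2-K1 and H2-D1, and in 21.3% of all 32851 windows of that length. GGGGATTCC was found for H2-K1 and H2-D1 and in 0.213% of all windows, and GGGACTTTC for B2m and in 0.289%. TGACG was found for 5 of 8 (17.8% of all windows) and CCAAT for 6 of 8 (33.8%). For Psmb9 and Tap1 these are the same letters, which lie between their starts and count for both genes. A gene counts if any of its windows holds a match, whereas the percentages count windows. The windows of H2-K1 and H2-D1 shared an identical run of 47 bases, which includes the kappa B match. Psmb9 and Tap1 are transcribed away from each other across the 225 bases shown. A match describes letters only.

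The class I genes spread over the range of the arrays, and no detection calls were used here. Of the 26 probe sets, 14 had a mean above the median of the arrays, 6 above the upper quartile and 5 below the lower quartile, and their means ran from 2.66 to 8.32 log2. Across the 6 arrays a probe set of these genes spanned a median of 0.37 log2, against 0.40 log2 over all probe sets. RMA signals depend on the probes, so they do not rank genes against each other.

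**Figure D1:**
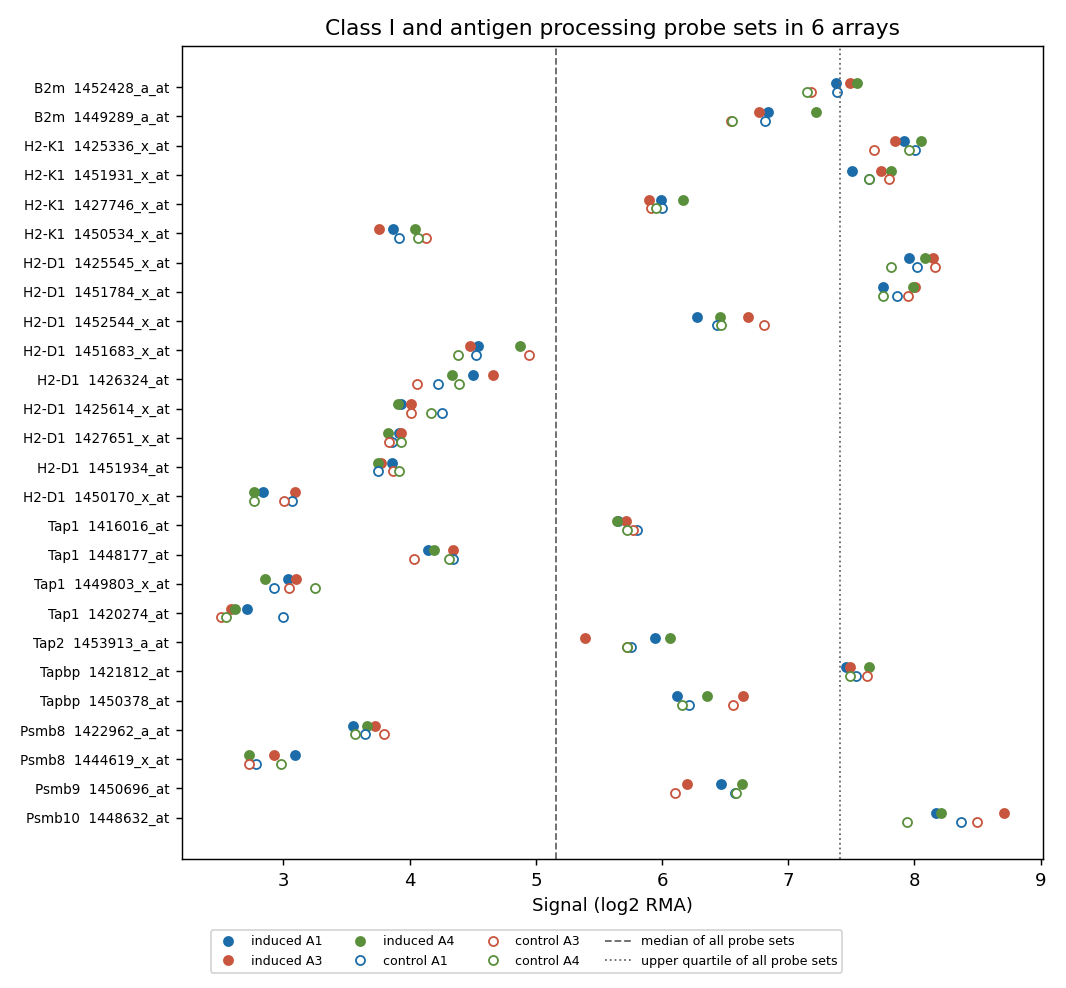
Signal in log2 RMA (horizontal axis) of each of the 26 probe sets (vertical axis) in induced (filled) and control (open) arrays of clones A1, A3 and A4; dashed and dotted lines mark the mean over arrays of the median and upper quartile of all probe sets. The 6 arrays lie close together for most probe sets, and Psmb9 and Psmb10 show the A3 arrays on opposite sides of the others.

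The first question was whether the pathway moved when WBSCR1 was induced. By limma, 0 of the 26 probe sets and 0 of all 45037 (0%) passed an adjusted p of 0.05 between induced and control arrays. None of the 26 had an unadjusted p under 0.05, against 676 of all probe sets, and the smallest adjusted p of all was 0.999942. 14 of the 26 were higher in induced arrays, with a median difference of 0.014 log2, against -0.0031 log2 over all probe sets. The 95% intervals of the 26, each taken alone and not adjusted, reached from -0.44 to 0.64 log2. They describe the spread between these arrays and set no bound on the changes that the adjusted test could miss.

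B2m, the light chain common to all class I molecules, had a positive difference in both of its probe sets. Probe set 1452428_a_at gave 7.38, 7.49 and 7.54 log2 in induced A1, A3 and A4, against 7.38, 7.18 and 7.15 log2 in control A1, A3 and A4. The control array of A1 was as high as its induced array, so the groups overlapped. The means were 7.47 ± 0.09 log2 in induced arrays and 7.24 ± 0.13 log2 in control arrays (SD, n = 3 each), a difference of 0.23 ± 0.10 log2 (SE, 95% interval -0.01 to 0.48, limma adjusted p = 0.999942).

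Probe set 1449289_a_at gave 6.84, 6.77 and 7.22 log2 in induced A1, A3 and A4, against 6.81, 6.55 and 6.56 log2 in control A1, A3 and A4. Again only the control array of A1 reached into the range of the induced arrays. The difference of B2m was 0.30 ± 0.15 log2 (SE, 95% interval -0.04 to 0.64, limma adjusted p = 0.999942), from means of 6.94 ± 0.24 log2 in induced and 6.64 ± 0.15 log2 in control arrays (SD, n = 3 each). Neither probe set passed the threshold. Without replicate 3 (clone A4) the 2 differences of B2m were 0.15 and 0.12 log2, and without replicate 1 (clone A1) they were 0.35 and 0.44 log2.

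By clone, the mean of the 2 B2m probe sets was 0.0085 log2 higher in the induced than in the control array of A1, 0.27 log2 higher in A3 and 0.53 log2 higher in A4. With 1 array per clone and condition these values have no test. They rest on the clones named in the array titles. Deviations from the group means correlated over probe sets at 0.31 within A1 and 0.29 within A4. Between induced A1 and control A4 this correlation was 0.37, and between induced A4 and control A1 it was 0.35. The 18S ribosomal RNA control probe sets ran in the opposite order, with induced minus control at 1.36 log2 in A1, 0.66 log2 in A3 and 0.0030 log2 in A4, and their part in the B2m values was not tested. The 2 B2m probe sets had r = 0.87 over the 6 arrays, which come from the same 6 RNA samples.

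**Figure D2:**
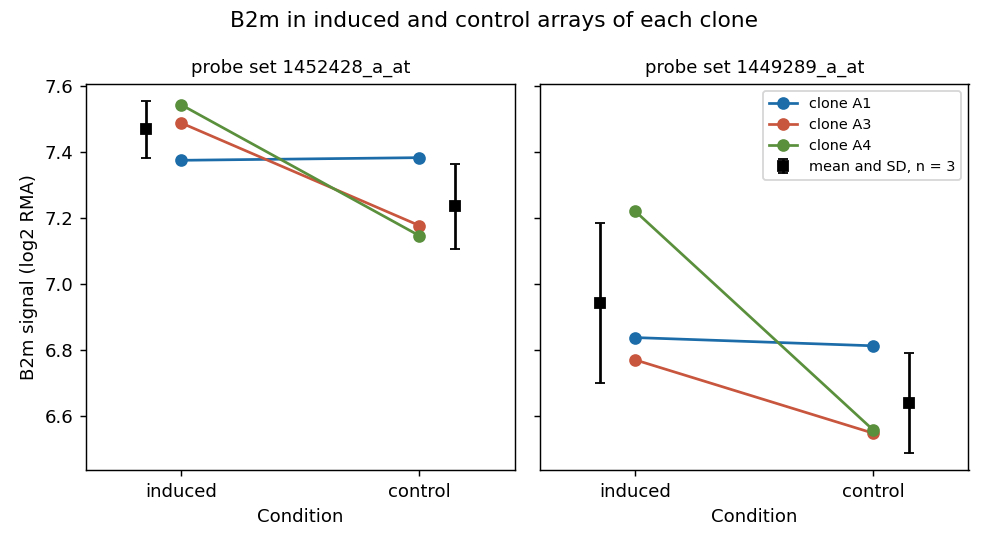
B2m signal in log2 RMA (vertical axis) in the induced (left) and control (right) array of each clone, 1 panel per probe set; squares and bars are the mean and SD of 3 arrays. Clones are those of the array titles. The line of A1 is flat in both panels, while those of A3 and A4 slope down towards the control side.

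Genes with a pattern like that of B2m were looked for outside the pathway. Among 937 probe sets with a mean of at least 6 log2 and a range of at least 1 log2, the highest Pearson correlations with B2m over the 6 arrays were those of Aqp3 (0.47), Mt3 (0.46), Rnd1 (0.42), Bcl3 (0.39) and Tgm2 (0.38). The range filter leaves out probe sets that vary as little as B2m itself. The points share clones in pairs, and correlations of this size over 6 arrays are weak. Within the pathway, H2-K1 1427746_x_at had r = 0.89 with B2m 1449289_a_at and r = 0.54 with the other B2m probe set, over the same 6 arrays. The H2-K1 probe sets 1425336_x_at, 1451931_x_at and 1450534_x_at had r = 0.67, 0.21 and -0.19 with B2m 1449289_a_at.

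The heavy chains H2-K1 and H2-D1, which hold the peptide and pair with B2m, showed no common direction. They are related class I genes, and 11 of their 13 probe sets carry the suffix _x_at, which marks probes that can also bind other transcripts, so the split between them is uncertain. H2-K1 1425336_x_at gave 7.92, 7.85 and 8.05 log2 in induced A1, A3 and A4, against 8.0, 7.68 and 7.96 log2 in control A1, A3 and A4. The groups overlapped and the difference of H2-K1 was 0.06 ± 0.12 log2 (SE, 95% interval -0.22 to 0.34). Its other 3 probe sets differed by -0.15 to 0.06 log2.

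H2-D1 1425545_x_at gave 7.96, 8.15 and 8.08 log2 in induced A1, A3 and A4, against 8.02, 8.16 and 7.81 log2 in control A1, A3 and A4. Only the control array of A4 stood below the rest, and the difference of H2-D1 was 0.06 ± 0.12 log2 (SE, 95% interval -0.21 to 0.34). The 9 H2-D1 probe sets ranged from -0.20 to 0.28 log2, with 5 of 9 positive. Both ends of that range were dim probe sets, 1425614_x_at and 1426324_at.

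The transporter and its loading factor were flat or mixed. Tap1 1416016_at, for the first half-transporter, gave 5.65, 5.71 and 5.64 log2 in induced A1, A3 and A4, against 5.80, 5.77 and 5.72 log2 in control A1, A3 and A4. This was the only one of the 26 probe sets whose induced and control arrays did not overlap, which 5.53% of all probe sets did. The difference of Tap1 was -0.09 ± 0.09 log2 (SE, 95% interval -0.30 to 0.11) with an unadjusted limma p of 0.304. The other 3 Tap1 probe sets were dim, with differences of -0.08 to -0.00011 log2.

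Tap2, the partner half-transporter, gave 5.94, 5.39 and 6.06 log2 in induced A1, A3 and A4, against 5.76, 5.72 and 5.72 log2 in control A1, A3 and A4. The control arrays sat together while induced A3 lay below and induced A4 above them. Tapbp encodes tapasin, which bridges the transporter and the heavy chain. Its 1421812_at gave 7.46, 7.49 and 7.64 log2 in induced A1, A3 and A4, against 7.54, 7.63 and 7.49 log2 in control A1, A3 and A4, with overlap.

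The immunoproteasome subunits Psmb8, Psmb9 and Psmb10 replace catalytic subunits of the standard proteasome. On induction Psmb8 differed by -0.02 ± 0.10 log2, Psmb9 by 0.01 ± 0.17 log2 and Psmb10 by 0.09 ± 0.19 log2 (SE). Their induced and control arrays overlapped in every case. Psmb8 was dim, at a mean of 3.66 log2 for the brighter of its 2 probe sets.

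**Figure D3:**
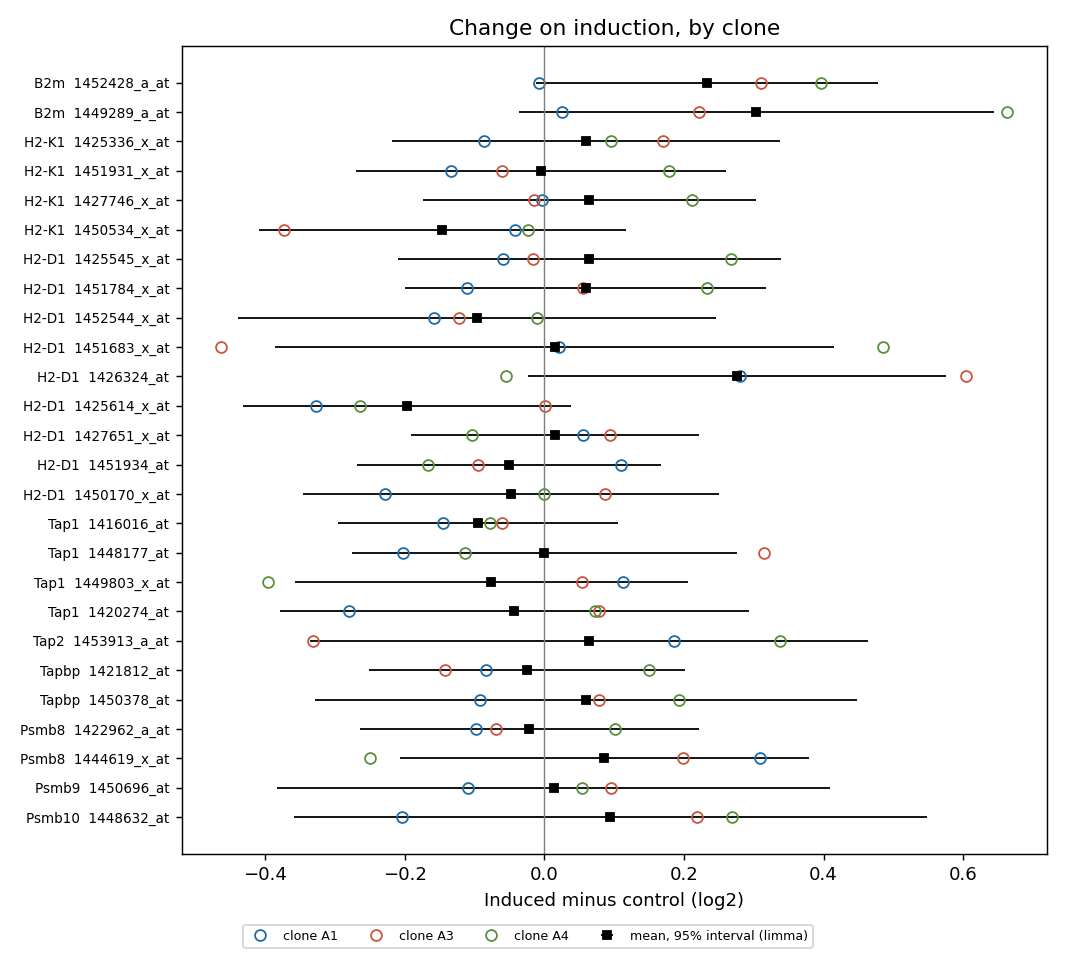
Induced minus control in log2 (horizontal axis) for the 26 probe sets (vertical axis): circles are the clones, squares and bars the limma estimate with its 95% interval. All 26 intervals include 0, and those of B2m and of H2-D1 1426324_at reach least far below it.

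The second question was whether the clones differed from each other. The F test of limma over the clones called 0 of the 26 probe sets, against 5.54% of all probe sets. 4 of the 26 had an unadjusted p under 0.05 in the F test, against 8695 of all 45037 probe sets. These 4 were Psmb9, Psmb10, Tapbp 1450378_at and H2-D1 1452544_x_at. A1 against the others gave 0 calls (0.666% of all probe sets) and A4 against the others 0 (0.486%). A3 against the others gave 1 call, Psmb9, where 9.57% of all probe sets were called. The share among the class I genes was not above the background of the arrays.

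Psmb9, the inducible beta-1i subunit, was lower in A3. Its induced and control arrays read 6.20 and 6.10 log2 in A3, against 6.47 and 6.58 log2 in A1 and 6.64 and 6.58 log2 in A4. Both A3 arrays lay below all arrays of A1 and A4, and A3 minus the others was -0.41 ± 0.10 log2 (SE, 95% interval -0.65 to -0.18, limma adjusted p = 0.0423). The call of Psmb9 was lost in each of the 8 fits with an array or a clone left out that still allowed the contrast, with values of -0.48 to -0.35 log2 and adjusted p from 0.0846 to 0.204 by limma.

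Psmb10, the inducible beta-2i subunit, stood on the other side without passing the threshold. Its induced and control arrays read 8.71 and 8.49 log2 in A3, against 8.17 and 8.37 log2 in A1 and 8.21 and 7.94 log2 in A4. The A3 arrays were the highest 2 of 6, with A3 minus the others at 0.43 ± 0.13 log2 (SE, limma adjusted p = 0.0754). With an array or a clone left out, the value for Psmb10 ran from 0.32 log2 (without induced replicate 1) to 0.54 log2 (without control replicate 1). It passed the threshold in 1 of these 8 fits.

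Tapbp 1450378_at read 6.64 and 6.57 log2 in induced and control A3, against 6.12 and 6.21 log2 in A1 and 6.35 and 6.16 log2 in A4. The A3 arrays did not overlap the others, and the difference was 0.39 ± 0.11 log2 (SE, limma adjusted p = 0.058). The brighter Tapbp probe set 1421812_at differed by 0.03 ± 0.11 log2, so the 2 probe sets of tapasin gave unlike values.

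H2-D1 1452544_x_at read 6.68 and 6.80 log2 in induced and control A3, against 6.28 and 6.43 log2 in A1 and 6.46 and 6.47 log2 in A4. The A3 arrays were the highest here too, with a difference of 0.33 ± 0.10 log2 (SE, limma adjusted p = 0.0779). Over the 9 H2-D1 probe sets, A3 minus the others ran from -0.05 to 0.33 log2, and over the 4 of H2-K1 from -0.22 to 0.12 log2.

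In all, 8 of the 26 probe sets had A3 arrays that did not overlap the arrays of A1 and A4, against 36.4% of all probe sets. 3 of the 8 were lower in A3 (Psmb9 and H2-K1 1425336_x_at and 1427746_x_at) and 5 higher (Psmb10, Psmb8 1422962_a_at, Tapbp 1450378_at and H2-D1 1425545_x_at and 1452544_x_at). The median of A3 minus the others was -0.00017 log2 over the 26, against 0.03 log2 over all probe sets. Of all pairs of the 26 probe sets, Psmb9 with H2-K1 1425336_x_at had the highest r over the 6 arrays, at 0.94. With the H2-K1 probe sets 1427746_x_at, 1450534_x_at and 1451931_x_at, Psmb9 had r = 0.73, 0.09 and -0.31. These values describe arrays that share RNA samples and clones.

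**Figure D4:**
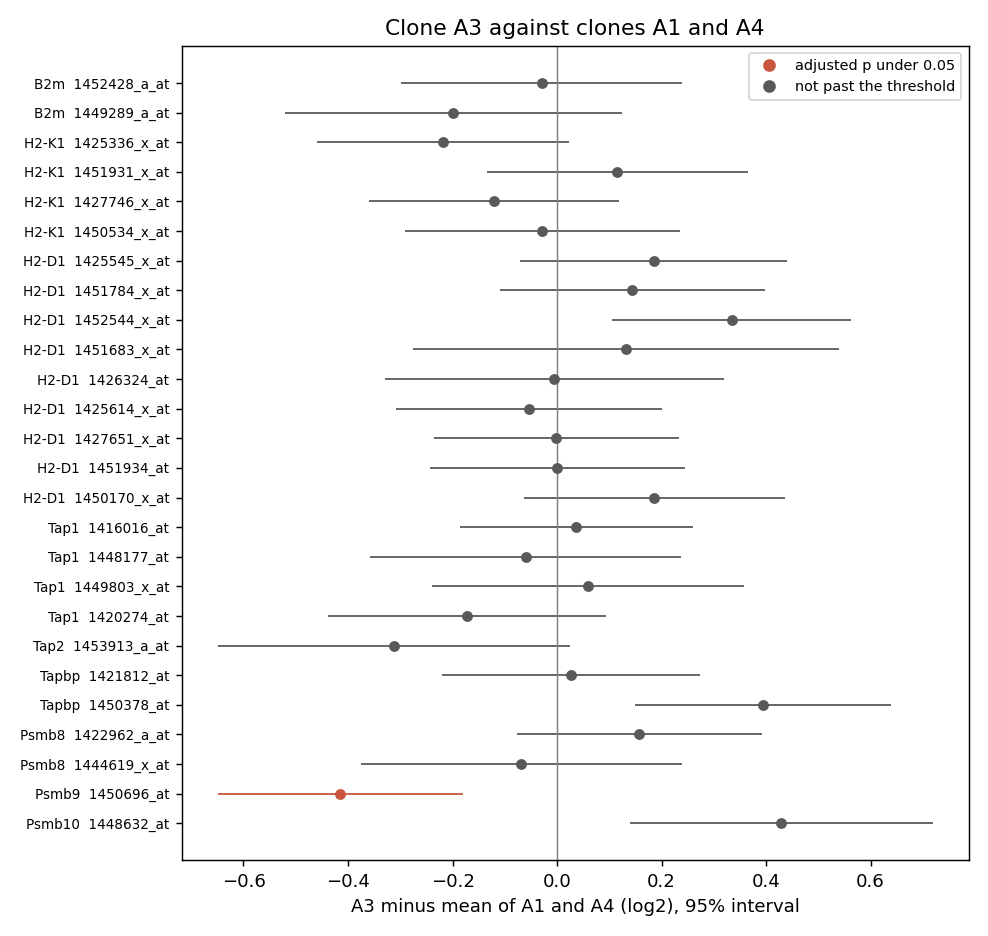
A3 minus the mean of A1 and A4 in log2 with its 95% interval from limma (horizontal axis) for the 26 probe sets (vertical axis). Psmb9, in colour, was the only call; Psmb10, Tapbp 1450378_at and H2-D1 1452544_x_at lie to the right of 0 with intervals that leave it out.

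The genes around the pathway gave 0 calls on induction by limma in every list followed. Of 10 class II genes, 1 was higher in induced arrays, against 9328 of all 18193 genes. Among 36 H2 region genes of other function, 17 were higher. Of these 36, Ier3, named after its value was seen, differed by 0.39 ± 0.32 log2 and Prrc2a by -0.28 ± 0.24 log2 (SE). Socs3, a feedback inhibitor of cytokine signalling, differed by 0.30 ± 0.23 log2 and Cxcl10, a chemokine induced by interferon, by 0.16 ± 0.09 log2 (SE). Psme1, a subunit of the PA28 proteasome activator, differed by 0.08 ± 0.18 log2 and Rfx5, a factor of class I and class II promoters, by 0.13 ± 0.15 log2 (SE). These intervals all include 0.

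Between clones, the F test of limma called at most 1 gene in each list around the pathway. The exception was the H2 region genes of other function, with 6 of 36. Counted with 1 probe set a gene, 6.84% of all genes passed the F test of limma, 5.13% were higher in A3 and 6.32% lower in A3. Of 14 other class I genes measured, 1 passed the F test and was lower in A3, H2-Bl, a gene of the class I region. H2-Bl read 6.05 and 5.96 log2 in induced and control A3, against 6.80 and 6.82 log2 in A1 and 6.99 and 7.0 log2 in A4. A3 stood clearly apart, at -0.90 ± 0.10 log2 (SE, limma adjusted p = 0.00201), and the call of H2-Bl held in all 8 fits with an array or clone left out.

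Of 12 class I transcription factors measured, 1 passed the F test, 1 was higher and 2 lower in A3. Irf1, a factor that binds the interferon regulatory element, read 9.39 and 9.59 log2 in induced and control A3, against 8.72 and 8.71 log2 in A1 and 8.79 and 8.77 log2 in A4. The difference of 0.74 ± 0.10 log2 (SE, limma adjusted p = 0.00506) was called in all 8 left-out fits. Rela, the p65 subunit of NF-kappa B, differed by -0.50 ± 0.10 log2 (SE, limma adjusted p = 0.0242), and Nfya, a CCAAT box factor named after its value was seen, by -0.41 ± 0.10 log2 (SE, limma adjusted p = 0.0375). The call of Rela held in 1 and that of Nfya in 0 of the 8 left-out fits.

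Of 24 interferon-stimulated genes, 1 passed the F test (Igtp), 5 were higher in A3 and 0 lower. Igtp and Irgm1 and Irgm2 are interferon-inducible GTPases, Bst2 is tetherin and Ifit2 an RNA-binding protein; Irgm1, Irgm2 and Ifit2 were named after their values were seen. A3 minus the others was 0.56 log2 for Igtp, 0.48 log2 for Bst2 and 0.75 log2 for Irgm1. It was 0.76 log2 for Irgm2 and 0.54 log2 for Ifit2. Ifit2 was dim, at a mean of 4.04 log2 in A3 and 3.50 log2 in A1 and A4. Irgm2 lay near the array medians, at 5.46 log2 in A3 and 4.71 log2 in A1 and A4. With single arrays or clones left out, Igtp was called in 5 of 8 fits, Irgm2 in 3, Irgm1 in 2, Bst2 in 1 and Ifit2 in 1. The median over the 24 was 0.09 log2, against 0.04 log2 over all genes.

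Of 12 interferon receptor and signalling genes, 1 passed the F test, 1 was higher and 2 lower in A3. Jak1, the kinase of interferon receptors, differed by -0.55 ± 0.10 log2 and Socs3 by -0.58 ± 0.12 log2, while Ifngr2, a chain of the interferon gamma receptor named after its value was seen, differed by 0.52 ± 0.12 log2 (SE). Each of these 3 calls held in 2 of the 8 left-out fits. Stat2, at 0.39 ± 0.10 log2 (SE, limma adjusted p = 0.052), did not pass. The median of A3 minus the others over the 12 was 0.25 log2, against 0.04 log2 over all genes.

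The standard proteasome was far from the dim end of the arrays, at 11.1 to 12.6 log2 for 15 core genes. The F test called 0 of the 15, and 1, the core subunit gene Psmb2, was higher in A3 by 0.43 ± 0.10 log2 (SE, limma adjusted p = 0.0351). Of 3 activator genes, Psme1 was higher in A3 by 0.43 log2 and Psme3 lower, at -0.50 log2. Psmb2 and Psme1 kept their calls in 0 and Psme3 in 1 of the 8 left-out fits. Of 12 genes of peptide trimming and loading, 0 were called, with Erap1, an aminopeptidase that trims class I peptides, at 0.43 ± 0.12 log2 and Tapbpl, a tapasin relative, at -0.31 ± 0.11 log2 (SE). 0 of 10 class II genes were called.

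Psmb9, Tap1, Psmb8 and Tap2 are consecutive genes in the RefSeq order of chromosome 17, and A3 minus the others was -0.41, 0.04, 0.16 and -0.31 log2 along them, with only Psmb9 called. Of 60 genes followed through the H2 region, 3 were called higher and 8 lower in A3 by limma. 36 of them have functions outside antigen presentation, of which 6 passed the F test. The largest was Ddah2, a gene of the dimethylarginine dimethylaminohydrolase family, at 10.38 and 10.19 log2 in induced and control A3, against 8.60 and 8.74 log2 in A1 and 9.30 and 9.07 log2 in A4. A3 stood above both clones, by 1.36 ± 0.11 log2 (SE, limma adjusted p = 0.000744), and the call of Ddah2 held in all 8 left-out fits. Rnf5 and Clic1 were higher in A3 at 0.60 log2 each, and Prrc2a (-0.63), Vps52 (-0.57), Trim39 (-0.58), Mdc1 (-0.50), Bag6 (-0.43) and Ring1 (-0.42 log2) lower, and of these all but Rnf5 and Prrc2a were named after their values were seen. Prrc2a kept its call in 6 of the 8 left-out fits, Rnf5, Clic1, Vps52 and Trim39 in 4, Mdc1 in 2, and Bag6 and Ring1 in 0. The call of Bag6 was also lost with a further quantile normalization (limma adjusted p = 0.0648), cyclic loess (0.0552) and array weights (0.0614). Called and uncalled genes lay next to each other, in both directions.

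**Figure D5:**
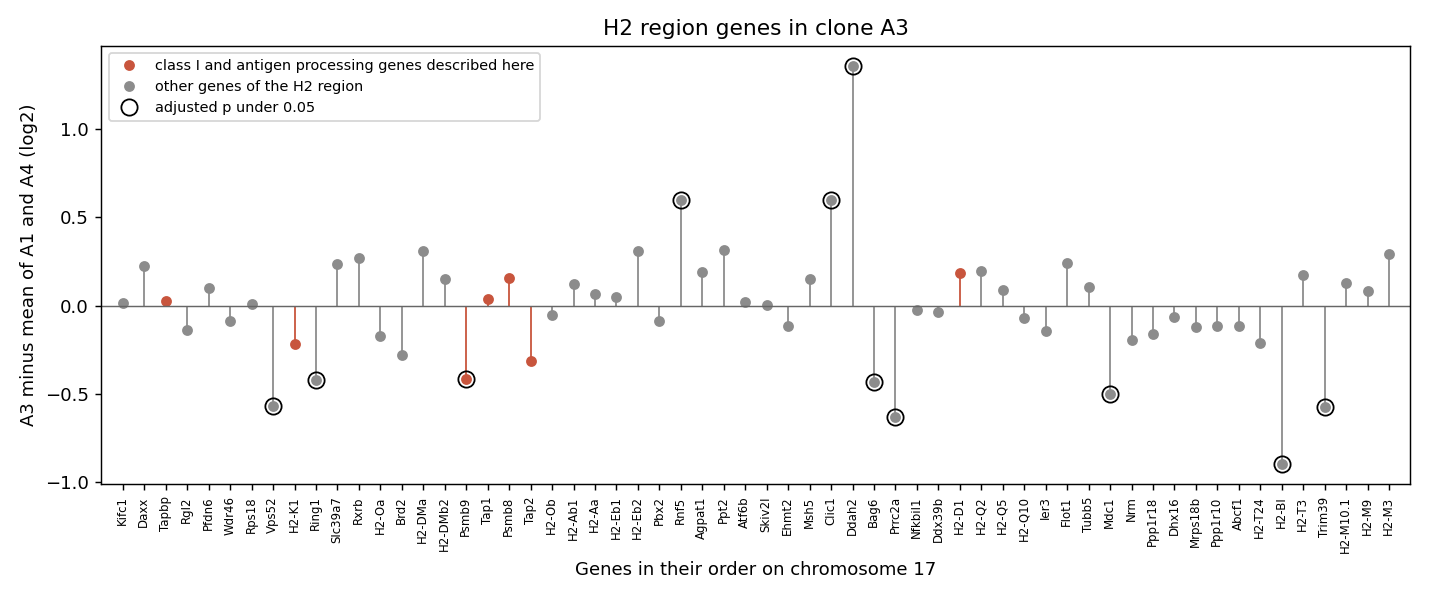
A3 minus the mean of A1 and A4 in log2 (vertical axis) for 60 genes in their order on chromosome 17 (horizontal axis, 1 probe set a gene); colour marks 7 of the class I pathway genes and rings mark limma adjusted p under 0.05. Of the 11 ringed genes, Ddah2 is highest and H2-Bl lowest, and Psmb9 is the only ringed one in colour.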

How the data were processed

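Total RNA of 6 samples had been hybridized to Affymetrix arrays. The deposited values are log2 signals that the authors computed by RMA with the Bioconductor affy package (version not given in the sources used here), and they were used as they stand. Tests ran on 45037 probe sets, without the 64 controls that Affymetrix adds. The platform annotation gave 1 symbol for 34945 probe sets, several for 932 and none for 9160, and 3 probe sets that name a class I gene beside another were left out. Symbols were updated through gene IDs in a RefSeq table of GRCm38.p6.

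The induction test was a two-sided limma fit (lmFit and eBayes, limma 3.58.1, R 4.3.3) of condition alone, and p-values were adjusted by Benjamini-Hochberg across the whole table, with a threshold of 0.05. For the clones, a limma fit held both condition and clone. It gave an F test and, for each clone, its difference from the mean of the other clones. Scripts were tested on simulated data. Lists used 1 probe set a gene, the brightest. Python 3.11.15 with matplotlib 3.10.9 drew the figures. The precision is limited by the number of arrays.

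Replicates 1, 2 and 3 are clones A1, A3 and A4 by the array titles, so the numbers pair the arrays. Deviations from the group means correlated over probe sets at 0.31, 0.67 and 0.29 within these pairs, and across clones the pairs induced A1 with control A4 and induced A4 with control A1 reached 0.37 and 0.35. The fit with the clone as a block was an alternative, as were the methods' t-test, other normalizations and filters, other thresholds, array weights and leaving out arrays or clones. The rule for naming took all probe sets of the 9 genes and the 5 genes most correlated with B2m. In each list it took the 2 genes with the smallest p in the F test and the 2 with the smallest p on induction. Not every gene that the rule took from the lists is named in the text, and no class II gene is. Any other gene is marked as named after its value was seen. The genes and lists were chosen with earlier results of these data known.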

Additional observations from a re-analysis of the deposited data

Results flagged for a closer look

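H2-D1 1451683_x_at and Tap2 had induction differences of opposite sign in different clones. For H2-D1 1451683_x_at, induced minus control was 0.49 log2 in A4 and -0.46 log2 in A3, and 0.02 log2 in A1. For Tap2 it was 0.34 log2 in A4 and -0.33 log2 in A3, and 0.19 log2 in A1. The difference between clones was not tested, since each clone had 1 array per condition. Groups of 3 arrays were too small to be tested for outlying arrays.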

How the results depend on the processing

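With the clone as a block, which follows the pairing of the arrays, 0 probe sets were called on induction, with 1539 at an unadjusted p under 0.05 and a smallest adjusted p of 0.999861 by limma. The methods' t-test called 0 (1096 unadjusted, smallest adjusted p = 0.878) and its paired form 0 (1846 unadjusted, smallest adjusted p = 0.0679). The block changed no other call. On induction 0 probe sets were called under every alternative run.

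For most of the settings below, the share of all probe sets called is not given, so the class I counts cannot be set against it. The mean filter and the choice of 1 probe set for each symbol also tested fewer probe sets. The 1 class I call of A3 became 2 with no condition term and with 1 probe set for each symbol, 3 with a mean of at least 5 log2, with quantile normalization again and with the trend and robust options, 4 at an adjusted p of 0.1, and 0 with array weights and with an added threshold of 0.5 log2. With arrays or clones left out it ranged from 0 to 1. Over all probe sets, the adjusted p of 0.1 called 4060 between clones and 6662 in A3, and leaving out arrays or clones called 8 (without clone A3) to 2724 between clones and 1312 to 3098 in A3. Besides Bag6, other genes named as called in A3 lost their calls too. Psme1 and Irgm1 did so with array medians subtracted and with array weights. Nfya did so with quantile normalization again and with cyclic loess, and Ifit2 with cyclic loess. The added threshold of 0.5 log2 removed the calls of Psmb2, Psme1, Psme3, Nfya, Rela, Bst2, Mdc1, Ring1 and Bag6. Irgm2 and Ifit2 were not among the probe sets with a mean of at least 5 log2. The cause of these shifts was not tested, except that fewer arrays leave fewer degrees of freedom.

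Small uncalled differences turned sign. Psmb8 on induction was 0.0025 log2 with array medians subtracted, 0.0071 log2 with quantile normalization again, 0.0058 log2 with cyclic loess and 0.00073 log2 with array weights. Psmb9 was -0.0070 log2 with quantile normalization again and Tapbp 1421812_at 0.0388 log2 with array weights. Tap2 was -0.014 log2 without induced replicate 1 and control replicate 3, an alternative chosen after seeing the data, for which the clone fit could not be run. With arrays or clones left out, the induction difference ranged from -0.0378 to 0.15 log2 for H2-D1 1425545_x_at, -0.0405 to 0.13 log2 for H2-K1 1425336_x_at, -0.0795 to 0.24 log2 for Psmb10, -0.0835 to 0.0423 log2 for Psmb8, -0.15 to 0.13 log2 for Psmb9, -0.0734 to 0.27 log2 for Tap2 and -0.11 to 0.0330 log2 for Tapbp 1421812_at. Leaving out clone A3 allowed no contrast of A3.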
